A study of Homo sapiens with 8 samples.

Results

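The array of HepG2 cells kept for 4 h with quercetin was set against the array of cells kept for 4 h without it, gene by gene. The members of this comparison are 2 of the 8 arrays of the series, chosen by treatment and time from the sample labels and by no measured value. HepG2 is an established line derived from a human hepatocellular carcinoma. All cells were first starved of serum, for 24 h by the text of the series and overnight by the labels of the samples, and all then stayed in medium without serum. Control cells received that medium alone and treated cells the same medium with 3 µM quercetin, and total RNA taken at 2, 4, 12 or 24 h went to 1 Affymetrix 3' expression array for each treatment and time.

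With 1 array a side there is no replicate error at 4 h, so no test was made and every difference is given by its size. A difference is the log2 signal of the quercetin array minus that of the control array of the same time, and 1 on this scale is a doubling. The pairs at 2, 12 and 24 h serve as a yardstick: a difference at 4 h that lies outside the range of the other 3 is larger or smaller than what pairs of arrays in this series otherwise gave for that gene. The yardstick mixes the spread between arrays with whatever quercetin did at those times. Nothing in the labels says whether the arrays came from separate cultures.

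Quercetin is a flavonol of onions, apples and tea. Its oxidised form reacts with protein thiols, and KEAP1, the sensor of the main oxidant response, is a thiol-rich adaptor that brings the transcription factor NRF2 (gene NFE2L2) to the CUL3 ubiquitin ligase. When KEAP1 is modified, NRF2 escapes degradation, pairs with small MAF proteins and binds antioxidant response elements beside genes of glutathione, thioredoxin and NADPH metabolism, where BACH1 competes with it. A second system that bears on the genes below is the hypoxia response, in which HIF factors bind hypoxia response elements beside glycolytic genes unless the EGLN prolyl hydroxylases mark them for degradation. Another is sterol synthesis, driven by the SREBF2 protein when cell cholesterol is low.

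The 2 arrays at 4 h were the closest of the 4 pairs. They correlated at 0.992 across probe sets, against 0.985, 0.990 and 0.987 at 2, 12 and 24 h. Their medians were 7.48 and 7.47, the mean 18S rRNA signal was 11.52 in control and 11.62 in quercetin, and the hybridisation spike-ins differed by -0.05, whereas 18S differed by 3.44 and the spike-ins by 0.86 in the 2 h pair. The 3' minus 5' difference, a sign of RNA integrity, was 1.12 and 1.17 for ACTB and 0.61 in both arrays for GAPDH. All 16 hepatocyte and HepG2 markers on the array were above the filter on dim genes, with medians of 14.58 and 14.52. Markers of other cell types were much dimmer, with 4 of 8 leukocyte, 7 of 10 fibroblast, 4 of 9 endothelial and 7 of 10 other epithelial markers above the filter. Their medians in control and quercetin were 7.78 and 7.59, 8.48 and 8.44, 7.46 and 7.26, and 8.74 and 8.63. In bulk RNA a change in the number of cells and a change in RNA per cell cannot be told apart.

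Few genes differed by much at 4 h. Of 13298 genes above the filter, 6 stood 1 or more above control with quercetin (0.0451%) and 3 stood 1 or more below (0.0226%). The 2 h pair had 16 above (0.12%) and 47 below (0.353%), the 12 h pair 43 (0.323%) and 3 (0.0226%), and the 24 h pair 31 (0.233%) and 20 (0.15%). At a size of 0.5 the numbers were 200 higher (1.5%) and 193 lower (1.45%). The SD of the differences over all genes was 0.216 at 4 h and 0.337, 0.250 and 0.285 at 2, 12 and 24 h. The median gene stood at -0.02 at 4 h and at -0.06, 0.05 and -0.10 at 2, 12 and 24 h. The 4 h pair thus had the narrowest spread, and its leading genes stood out from a quiet background. A difference of at least 0.5 that also lay outside the range of the other 3 pairs was found in 358 genes (2.69%), 181 higher (1.36%) and 177 lower (1.33%). When the genes were divided into equal dim, middle and bright classes by signal level, the 6 higher genes fell in the middle (2) and bright (4) classes. The 3 lower genes were all in the dim class, where the SD at 4 h was 0.242 against 0.171 in the bright class.

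**Figure D1:**
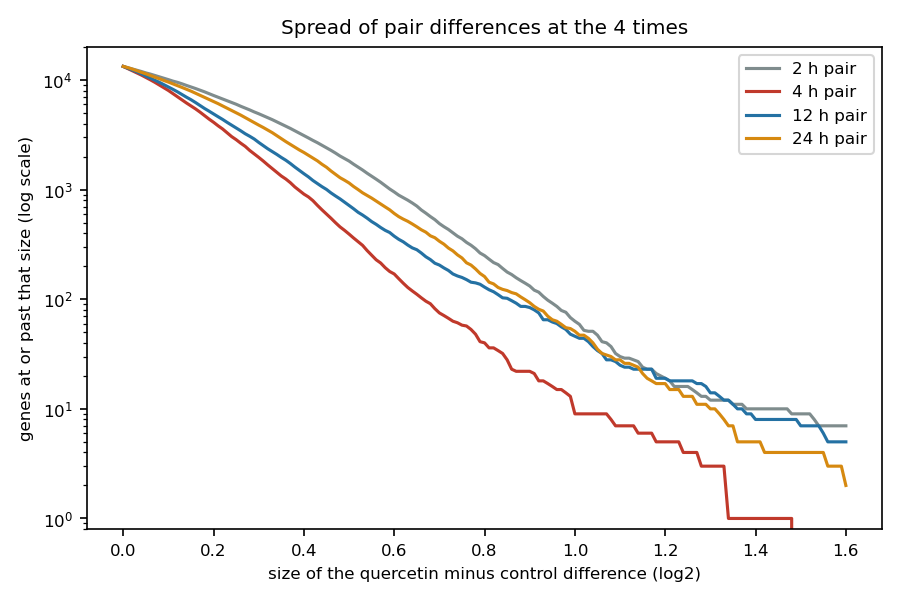
Number of the 13298 genes (y axis, log scale) whose quercetin minus control difference is at least the size on the x axis (log2), 1 line for each time pair. The 4 h line lies below the other 3, with 9 genes at or past a size of 1.

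Genes of oxidant defence led the higher end. They made up 6 of the 15 largest positive differences, namely AKR1B10, GCLM, SRXN1, TXNRD1, SLC7A11 and GCLC. The 7 lists of this system together had 68 members with a probe set of their own, of which 65 were above the filter. Of these, 45 were higher with quercetin and 20 lower, where 45.7% of all genes were higher, and 10 reached a size of 0.5 above control (15.4%) while 0 did so below it, beside 1.5% and 1.45% of all genes. Of the 65, 25 lay outside the range of the other pairs, a smaller share than the 45.1% of all genes. The median of the 65 was 0.09, so that a small number of genes carried large differences and most members lay close to 0. Earlier results of these data were known when the lists were drawn up, so these counts describe the lists and do not test them. The medians of the same 65 genes were -0.01, 0.19 and -0.06 at 2, 12 and 24 h.

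**Figure D2:**
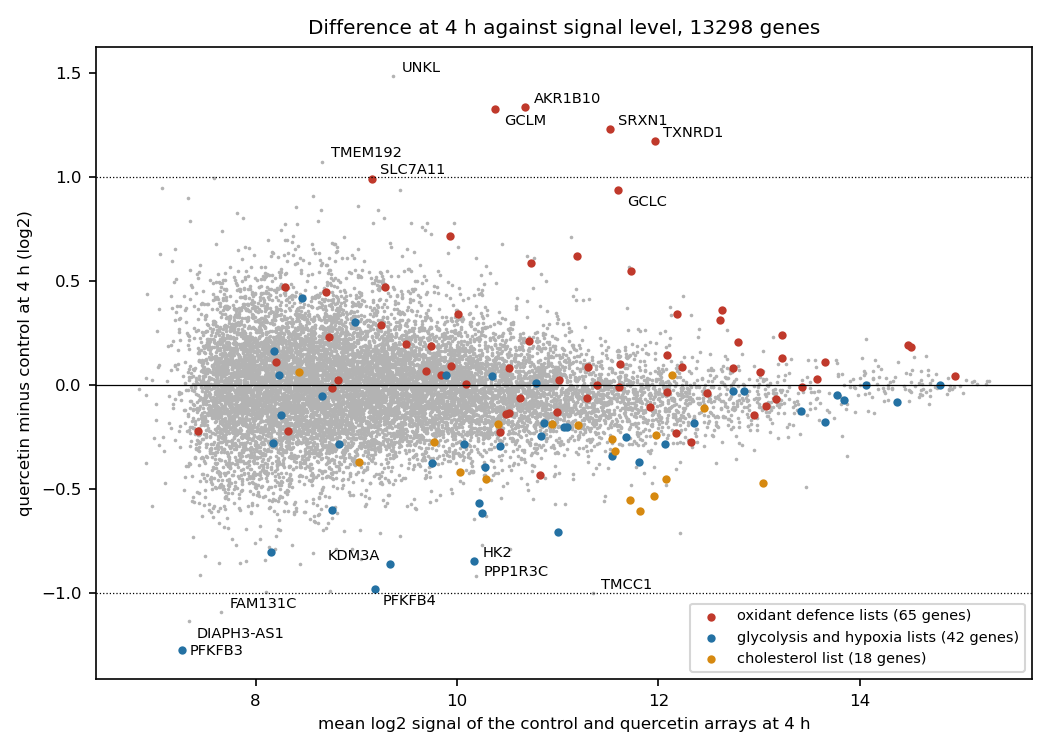
Quercetin minus control difference at 4 h (y axis, log2) against the mean signal of the 2 arrays at 4 h (x axis, log2), 1 point a gene. Oxidant defence genes (65) are red, glycolysis and hypoxia genes (42) blue and cholesterol genes (18) orange. The red points reach 1.34 and the blue ones -1.27.

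Glutathione synthesis held 3 of these 6 genes. GCLM encodes the regulatory subunit of glutamate-cysteine ligase, which begins the synthesis. Its signal in the control arrays was 9.91, 9.72, 10.08 and 9.75 at 2, 4, 12 and 24 h, and in the quercetin arrays 10.10, 11.05, 10.42 and 9.82. The quercetin array at 4 h was the highest of the 8 and the control array at 4 h the lowest. The difference was 1.33, or 2.52-fold, against 0.19, 0.34 and 0.08 in the other pairs, and its 3 probe sets gave 1.33, 1.91 and 2.04. The mean of the 3 was 1.76. GCLC, the catalytic subunit of the same enzyme, was at 11.15, 11.13, 11.16 and 11.64 in control and 11.31, 12.07, 11.55 and 11.51 with quercetin. It differed by 0.94 at 4 h, above the other pairs (0.16, 0.38 and -0.12), and its second probe set above the filter gave 1.38. Both subunits were thus highest in the same array.

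SLC7A11 carries cystine, the source of cysteine for glutathione, into the cell. Its control signal was 8.62, 8.66, 8.40 and 9.54 and its quercetin signal 8.57, 9.65, 8.36 and 8.89. The 4 h difference was 0.99, with 1.11 from the second probe set, while the pairs at 2 and 12 h were close to 0 (-0.06 and -0.04) and the 24 h pair was reversed at -0.65. The quercetin array at 4 h was the highest of the 8 by a small step, since control at 24 h came next. SLC3A2, the heavy chain that partners it, differed by 0.22. GSR, the reductase that regenerates glutathione, differed by 0.55 at 4 h and 0.62 at 12 h, and so was within the range of the other pairs. The enzyme of the last step of synthesis, GSS, differed by -0.06. The peroxidases that spend glutathione were near 0, with GPX2 at 0.11, GPX1 and GPX4 at -0.10 each and GPX3 at -0.14, and the glutaredoxin GLRX stood at -0.23. CHAC1, which breaks glutathione down, was at 0.11. Of the 13 members, 8 were higher and 5 lower, with a median of 0.11. Outside the range of the other pairs lay 5, a smaller share than the 45.1% of all genes.

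SRXN1 and TXNRD1 led the thioredoxin system. SRXN1, sulfiredoxin, repairs over-oxidised peroxiredoxins. It was at 11.30, 10.90, 10.54 and 10.71 in control and 11.85, 12.14, 11.19 and 10.91 with quercetin, and thus higher with quercetin at each time, with the largest gap, 1.23 or 2.35-fold, at 4 h. TXNRD1, the cytosolic thioredoxin reductase, had control values of 11.56, 11.38, 11.37 and 11.63 and quercetin values of 12.08, 12.55, 11.84 and 11.71. All 4 quercetin arrays lay above all 4 control arrays, and the 4 h difference was 1.17 or 2.26-fold against 0.52, 0.47 and 0.08. Its other probe set is dim and gave 0.09, which takes the mean of both to 0.63. TXN, thioredoxin itself, differed by 0.21 on its brightest probe set and by 0.89 on the other, with a mean of 0.55. The 5 peroxiredoxins PRDX1, PRDX2, PRDX3, PRDX4 and PRDX6 lay between -0.04 and 0.09, though the 4 probe sets of PRDX2 ran from -0.25 to 0.30, and the mitochondrial pair TXN2 and TXNRD2 stood at -0.14 and -0.22. TXNIP, the inhibitor of thioredoxin, was at -0.43, inside the range set by -1.21 at 2 h. SRXN1 and TXNRD1 were the 2 of the 11 members outside the range of the other pairs, where 45.1% of all genes lay outside.

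The promoters of GCLM, TXNRD1, KEAP1 and UNKL hold the core letters of the antioxidant response element, and are shown because these genes are among the largest differences or regulate the system. The motif searched was TGACNNNGC on both strands in the 250 bases before each gene's start, in promoters of RefSeq on GRCh38.p14. Each stretch runs 5' to 3' on the strand of its gene, and the capitals mark the match, read as GCNNNGTCA where it lies on the opposite strand.
GCLM, chr1:93909436-93909484, minus strand: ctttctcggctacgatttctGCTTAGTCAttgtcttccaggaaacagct
TXNRD1, first start, chr12:104215660-104215708, plus strand: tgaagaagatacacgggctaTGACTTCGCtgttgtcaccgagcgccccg
TXNRD1, other start, chr12:104286910-104286958, plus strand: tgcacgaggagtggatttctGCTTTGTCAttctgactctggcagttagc
KEAP1, upstream match, chr19:10502797-10502845, minus strand: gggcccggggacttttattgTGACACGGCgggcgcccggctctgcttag
KEAP1, match nearest the start, chr19:10502774-10502822, minus strand: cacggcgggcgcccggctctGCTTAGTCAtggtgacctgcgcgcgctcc
UNKL, chr16:1379710-1379758, minus strand: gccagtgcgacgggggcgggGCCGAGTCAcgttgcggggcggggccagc

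GCLM and the match of KEAP1 nearest its start share the same letters, GCTTAGTCA, at 34 and 31 bases before the start. The motif was found in 13.2% of the 27305 genes of the promoter table and in 16.1% of the 10625 tested genes that have an entry there. Among genes at least 0.5 higher it was found in 41 of 159 with an entry (25.8%), among those at least 0.5 lower in 20 of 149 (13.4%), and in the oxidant defence lists in 14 of 55 (25.5%). The share in the lists covers known members whatever their 4 h value, so it describes the lists and not the 4 h differences. Of the 15 highest genes 11 had an entry and 4 held a match: GCLM, TXNRD1, UNKL and DNASE1L1. GCLC and SRXN1 had none in this window, which says only that the letters are not in these 250 bases. A match is a run of letters and not a measured binding site.

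Among the regulators of NRF2, SQSTM1 and KEAP1 had the largest differences. SQSTM1 (p62), which draws KEAP1 into autophagy, was at 10.88 in control and 11.50 with quercetin at 4 h. Its difference of 0.62 exceeded the other pairs (0.11, 0.47 and -0.04), but its probe sets spread from -0.14 to 0.62, and the 1 kept when only gene-specific probe sets are used gave 0.09. KEAP1 was at 10.44 and 11.03, a difference of 0.59 against -0.04, 0.24 and -0.20, on a single probe set. BACH1, the repressor that competes for the same elements, stood 0.45 higher (8.48 and 8.92), with 0.16 from its second probe set above the filter, and in the other 3 pairs it was lower (-0.13, -0.18 and -0.37). MAFF, a small MAF, was 0.47 higher after -0.61 at 2 h. NFE2L2 itself was lower, at 12.47 and 12.19, with a difference of -0.27 that no other pair reached. MAFG, NFE2L1, CUL3 and RBX1 lay between -0.06 and 0.08. Of these 9 genes 6 were higher and 3 lower, and 7 lay outside the range of the other pairs, where 45.1% of all genes did.

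Aldo-keto reductases, NADPH-dependent enzymes that reduce aldehydes and ketones, were all higher: 6 of 6, with a median of 0.19. AKR1B10 was at 10.03, 10.01, 10.47 and 10.56 in control and 10.25, 11.35, 12.11 and 11.17 with quercetin. Its 4 h difference of 1.34 or 2.53-fold was exceeded at 12 h (1.63), so it alone of the 15 highest genes lay inside the range of the other pairs. The other 5 members lay inside theirs as well. AKR1C3 differed by 0.24, AKR1C1 by 0.19 and AKR1C2 by 0.18. Those 3 genes are so alike that a probe set may read more than 1 of them, and the probe sets of AKR1C1 ranged from 0.06 to 1.01. AKR7A3 and AKR7A2, aflatoxin aldehyde reductases, were at 0.07 and 0.03.

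Detoxification enzymes showed smaller differences, most of them of the same sign. PTGR1, which reduces reactive alkenals, was at 9.57 in control and 10.29 with quercetin. It was 0.72 higher, with 0.51 and 1.22 from its other probe sets, though the 12 h pair gave 0.79. OSGIN1, an oxidant-induced growth inhibitor, was 0.47 higher and UGDH, which makes the sugar donor of glucuronidation, 0.36 higher. EPHX1, the microsomal epoxide hydrolase, differed by 0.34 at 4 h and 1.27 at 12 h, and CBR1, a carbonyl reductase, by 0.29. NQO1, the quinone reductase often used to read NRF2 activity, was at 13.17 and 13.30, a difference of 0.13 that was smaller than in each other pair (0.16, 0.52 and 0.22). The 3 probe sets of NQO1 ran from 0.13 to 0.30 at 4 h with a mean of 0.21, and the one used was the lowest. The aldehyde dehydrogenases ALDH3A1 (-0.22) and ALDH3A2 (-0.23, with a mean over its probe sets of -0.02) were the lower ones, and 8 of 10 members were higher with a median of 0.24. Among glutathione transferases, GSTA1 was higher at every time and most at 4 h (0.68, from 10.11 to 10.79), while 6 of 9 members were higher with a median of 0.08. Its second probe set above the filter gave 0.26.

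**Figure D3:**
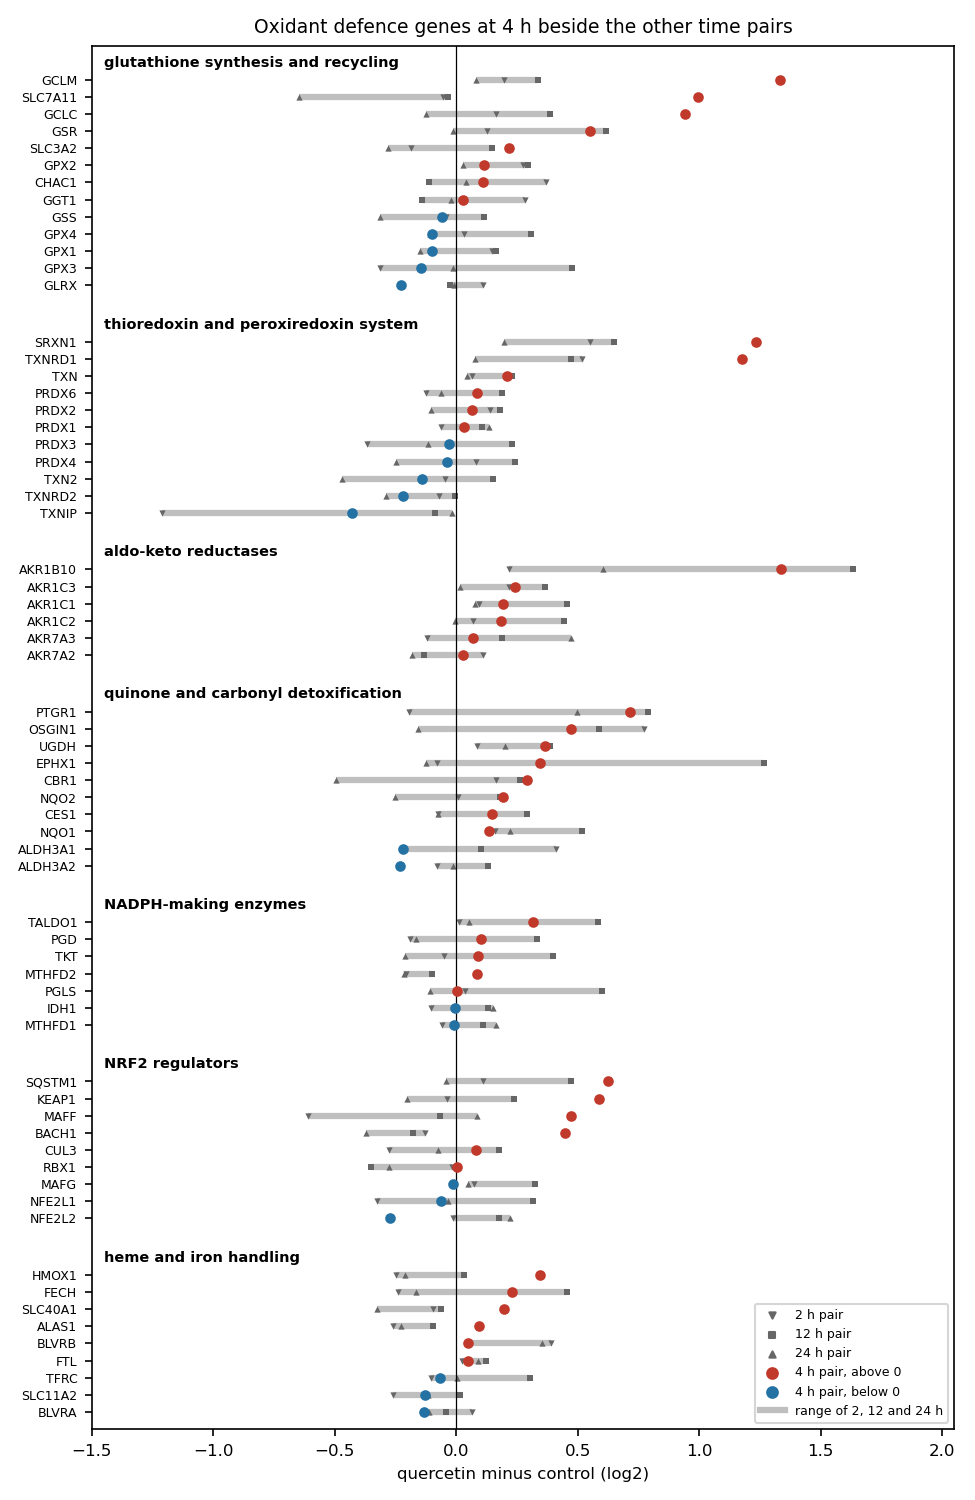
Quercetin minus control (x axis, log2) for the 65 tested genes of the 7 oxidant defence lists. Large circles are the 4 h pair, red above 0 and blue below; small marks are the 2, 12 and 24 h pairs and grey bars their range. GCLM, SLC7A11, GCLC, SRXN1 and TXNRD1 lie to the right of their bars, at 0.94 to 1.33, and most others lie within 0.5 of 0.

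NADPH-making and iron genes had 0 members past 0.5 on the probe sets used. TALDO1, transaldolase of the pentose phosphate route, was 0.31 higher at 4 h and 0.58 at 12 h. PGD and MTHFD2 were at 0.10 and 0.09. TKT, transketolase of the same route, was at 0.09, while its 3 probe sets ran from -0.04 to 0.61 with a mean of 0.22. The values for PGLS, IDH1 and MTHFD1 were within 0.01 of 0. The NADPH list had 5 of 7 members higher and a median of 0.09. HMOX1, heme oxygenase, which BACH1 represses, was at 9.84 in control and 10.18 with quercetin. This 0.34 was the largest of its 4 pairs, and the quercetin array at 4 h the highest of the 8. FECH, which inserts iron into heme, differed by 0.23 and the iron exporter SLC40A1 by 0.20. FTL, the ferritin light chain, was at 0.05 and the transferrin receptor TFRC at -0.07. Of the 9 iron genes 6 were higher, with a median of 0.05.

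Targets of the aryl hydrocarbon receptor (AhR), which many flavonoids bind, had no common direction at this time. CYP1A1 was at 9.52, 10.68, 8.58 and 8.51 in control and 10.90, 10.91, 10.44 and 8.80 with quercetin. The control array at 4 h was the highest of the 4 control arrays and lay among the quercetin arrays of 2, 4 and 12 h, and the 4 h difference of 0.23 was the smallest of the 4 pairs (1.37, 1.86 and 0.29 in the others). CYP1A2 was at -0.30, with 0.05 from its second probe set, the receptor AHR at 0.01, its partner ARNT at 0.07 and TIPARP, a target that limits the receptor, at -0.10. Of 8 members 4 were higher and 4 lower, with a median of -0.05. That median lay between -0.10 and 0.04 under other processing. For removal of the flavonoid itself, ABCC2, the canalicular exporter of conjugates, was 0.54 higher (10.06 and 10.60) and lay above the other pairs, SULT1A1, a sulfotransferase, was at 0.08, and ABCB1, another efflux pump, at -0.44. That list had 5 of 7 members higher and a median of 0.03.

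Genes of glycolysis and hypoxia led the lower end. PFKFB3, PFKFB4, KDM3A and HK2 were 4 of the 15 largest negative differences. The 3 lists of these systems had 43 members with a probe set of their own, and 42 were above the filter. Of these, 33 were lower and 8 higher, where 54.2% of all genes were lower, and 9 were at least 0.5 lower (21.4%) and 0 at least 0.5 higher. Of the 42, 14 lay outside the range of the other pairs, below the share of all genes (45.1%). The median was -0.20, after -0.28 at 2 h and before 0.18 and 0.04 at 12 and 24 h. The 4 h difference thus had the sign of the 2 h pair and not that of the later pairs.

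PFKFB3 and PFKFB4 make and break fructose 2,6-bisphosphate, the activator of phosphofructokinase, and both are known hypoxia-induced genes. PFKFB3 was at 7.18, 7.90, 8.66 and 8.81 in control and 6.64, 6.63, 9.30 and 8.91 with quercetin. The control signal was higher at each later time, while the quercetin signal at 4 h stayed at its 2 h value, the lowest of the 8 arrays. Its difference was -1.27 at 4 h and 0.64 at 12 h. At 4 h the quercetin array was below the filter level of 7.43, where signals are compressed, and a filter on the 4 h arrays alone drops the gene. PFKFB4 was at 10.18, 9.67, 10.52 and 10.81 in control and 9.74, 8.69, 10.85 and 10.95 with quercetin, a difference of -0.98 at 4 h. Its second probe set gave -0.15, and the mean of both was -0.57. The other members of the family, PFKFB1 and PFKFB2, were at 0.17 and 0.05, so the family median of -0.46 rests on 2 genes.

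HK2, the inducible hexokinase, was at 11.01, 10.59, 10.77 and 11.97 in control and 10.35, 9.75, 11.32 and 12.13 with quercetin. It differed by -0.84 at 4 h, outside the range from -0.67 at 2 h to 0.55 at 12 h, with -0.13 from its second probe set above the filter and -0.29 as the mean of its 3. The glucose transporters SLC2A1 (-0.39) and SLC2A3 (-0.34) were lower as well. Most other glycolytic enzymes were within 0.2 of 0 on the probe sets used: GAPDH was at 0.00, GPI and PKM at -0.03, TPI1 at -0.05, ENO1 at -0.07, LDHA at -0.08, PGAM1 at -0.12 and PGK1 at -0.17. Other probe sets reached 0.37 for ENO1 and -0.32 for PKM. The platelet phosphofructokinase PFKP was higher, at 0.42, and ENO2 at 0.31. ALDOC, an aldolase, was at -0.29. The median of the 17 enzymes and transporters was -0.05, and HK2 alone of them was at least 0.5 lower.

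Hypoxia targets outside glycolysis had 19 of 21 members lower and a median of -0.28, with 6 at least 0.5 lower. Over all genes 54.2% were lower and 1.45% at least 0.5 lower. Of the 21, 7 lay outside the range of the other pairs, a smaller share than the 45.1% of all genes. KDM3A, a histone demethylase, was at 9.96, 9.77, 10.94 and 11.51 in control and 9.26, 8.91, 10.93 and 11.55 with quercetin. Its quercetin array at 4 h was the lowest of the 8, and the difference of -0.86 compared with -0.70 at 2 h and values near 0 later. A dim second probe set gave -0.01, which takes the mean to -0.43. ANKRD37, an ankyrin repeat protein, was at 8.56 and 7.76 (-0.80), and the mTORC1 inhibitor DDIT4 at 11.36 and 10.65 (-0.71). Both lay outside the range of the other pairs, although the 24 h pair of DDIT4 came close at -0.63. KDM4B, another demethylase, was at -0.60, and its 5 probe sets above the filter ran from -1.004 to -0.01. PDK1, which blocks entry of pyruvate into the mitochondrion, was at -0.56, with -0.49 and -0.89 from its other probe sets and -1.10 at 2 h. BHLHE40, a repressor also counted with the clock, was at -0.61, inside its range, and its second probe set gave 0.11. The EGLN hydroxylases, EGLN1 and EGLN3, were both at -0.28, and VEGFA, the angiogenic factor, at -0.20. MXI1 (0.05) and WSB1 (0.01, with -0.35 as the lowest of its probe sets) were the 2 above 0.

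The short core of the hypoxia response element, ACGTG, was searched in the same way; it is also part of an E-box. The stretches of HK2, PFKFB3, ANKRD37 and DDIT4 are shown as examples with a match among the genes of the glycolysis and hypoxia lists at least 0.5 lower. PFKFB4 and KDM3A differed by more than ANKRD37 and DDIT4 but are not shown, since neither holds a match. They are again from RefSeq promoters on GRCh38.p14, 5' to 3' on the strand of the gene, with 1 match in capitals. In HK2 and PFKFB3 the base before it makes an overlapping match on the opposite strand, and the ANKRD37 stretch holds a further pair of overlapping matches, in lower case, near its 5' end.
HK2, chr2:74835002-74835046, plus strand: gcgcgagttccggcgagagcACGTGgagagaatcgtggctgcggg
PFKFB3, chr10:6202805-6202849, plus strand: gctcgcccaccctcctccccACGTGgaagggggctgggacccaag
ANKRD37, chr4:185396678-185396722, plus strand: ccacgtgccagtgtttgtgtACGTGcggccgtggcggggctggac
DDIT4, chr10:72273779-72273823, plus strand: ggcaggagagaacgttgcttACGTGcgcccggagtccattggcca

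Of the genes in the hypoxia and glycolysis lists 25 of 37 with an entry held the letters (67.6%), against 27.6% of tested genes and 21.7% of all genes in the table. These lists name known hypoxia and glycolysis genes whatever their 4 h value, so this share describes the lists and not the 4 h differences. Among all genes at least 0.5 lower the share was 51 of 149 (34.2%), and among those at least 0.5 higher 45 of 159 (28.3%). KDM3A and PFKFB4 had no match in this window.

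**Figure D4:**
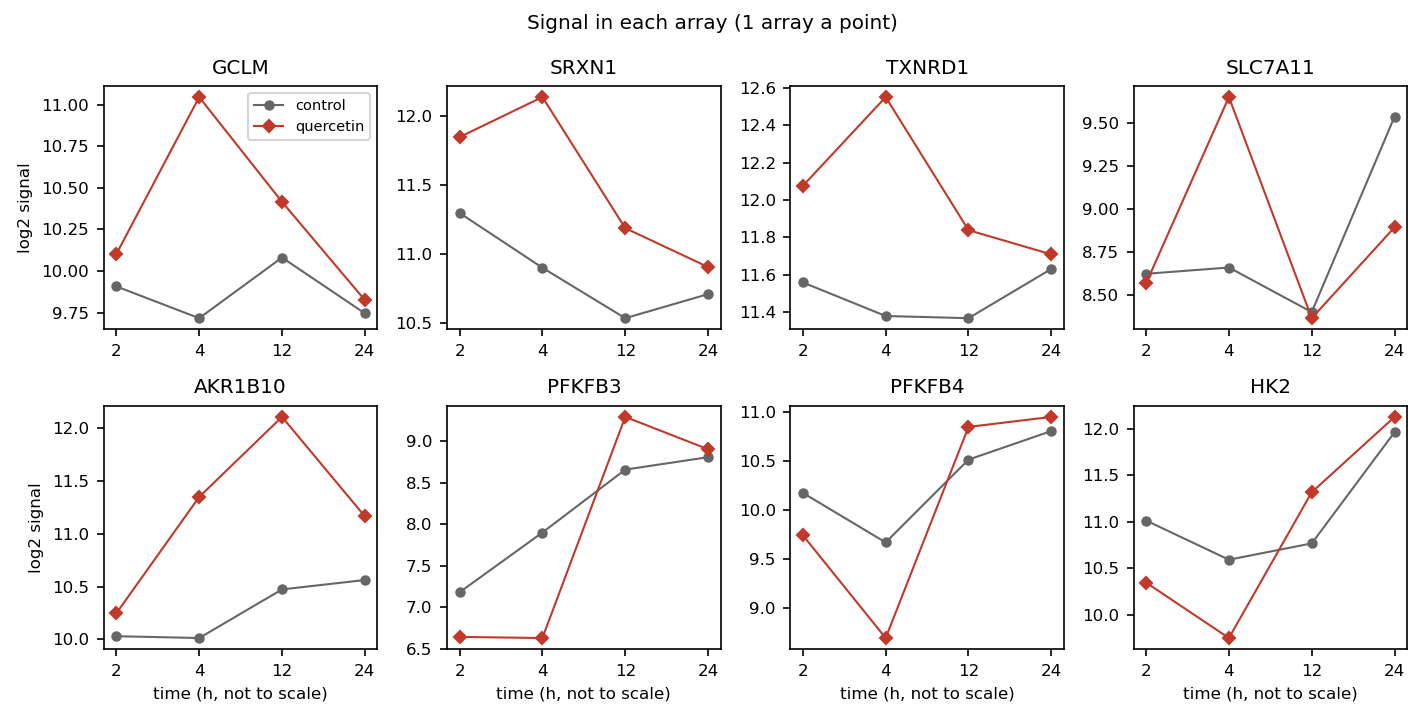
Log2 signal (y axis, its own range in each panel) in the control (grey) and quercetin (red) arrays at 2, 4, 12 and 24 h (x axis, not to scale) for 8 genes, 1 array a point. The gap at 4 h is the widest of the 4 for GCLM, SRXN1, TXNRD1, SLC7A11, PFKFB3, PFKFB4 and HK2, while AKR1B10 has its widest gap at 12 h.

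Genes of cholesterol synthesis were lower with quercetin in 16 of 18 cases, with a median of -0.29, where 54.2% of all genes were lower. Of the 18, 3 were at least 0.5 lower (16.7%), beside 1.45% of all genes. Outside the range of the other pairs lay 4, a smaller share than the 45.1% of all genes. IDI1, the isomerase of isopentenyl diphosphate, was at 12.19, 12.12, 12.09 and 12.22 in control and 11.52, 11.51, 12.11 and 12.22 with quercetin. SQLE, the epoxidase that commits squalene to sterols, was at 12.20, 11.99, 11.98 and 12.14 in control and 11.45, 11.44, 12.33 and 12.14 with quercetin. For both, the quercetin arrays at 2 and 4 h were the 2 lowest of the 8 and the later arrays were level with control or above it. The 4 h differences were -0.60 for IDI1, where the 1 gene-specific probe set above the filter gave -0.0037, and -0.55 for SQLE, where all 3 probe sets above the filter were at least 0.51 lower. SC5D, a late desaturase, differed by -0.53, with 0.02 from a dim second probe set and a mean of -0.26. MSMO1 differed by -0.47, NSDHL by -0.45 and HMGCS1, which makes the substrate of HMG-CoA reductase, by -0.45. SREBF2 was at -0.27. PMVK (0.07) and EBP (0.05) were the 2 above 0. None of the 3 largest lay outside the range of the other pairs, since the 2 h pair was as low or lower, and that pair is the one whose arrays differed in 18S and spike-in signal; the part of that in the 2 h values was not tested. Fatty acid synthesis had 8 of 9 members lower and a median of -0.18, with ELOVL6 (-0.37), ACLY (-0.37) and SREBF1 (-0.35) lowest and FASN at -0.19. For ELOVL6, an elongase, the other 2 probe sets gave 0.02 and 0.14 and the mean was -0.07, while FASN, the synthase, was at -0.66 on its second probe set.

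**Figure D5:**
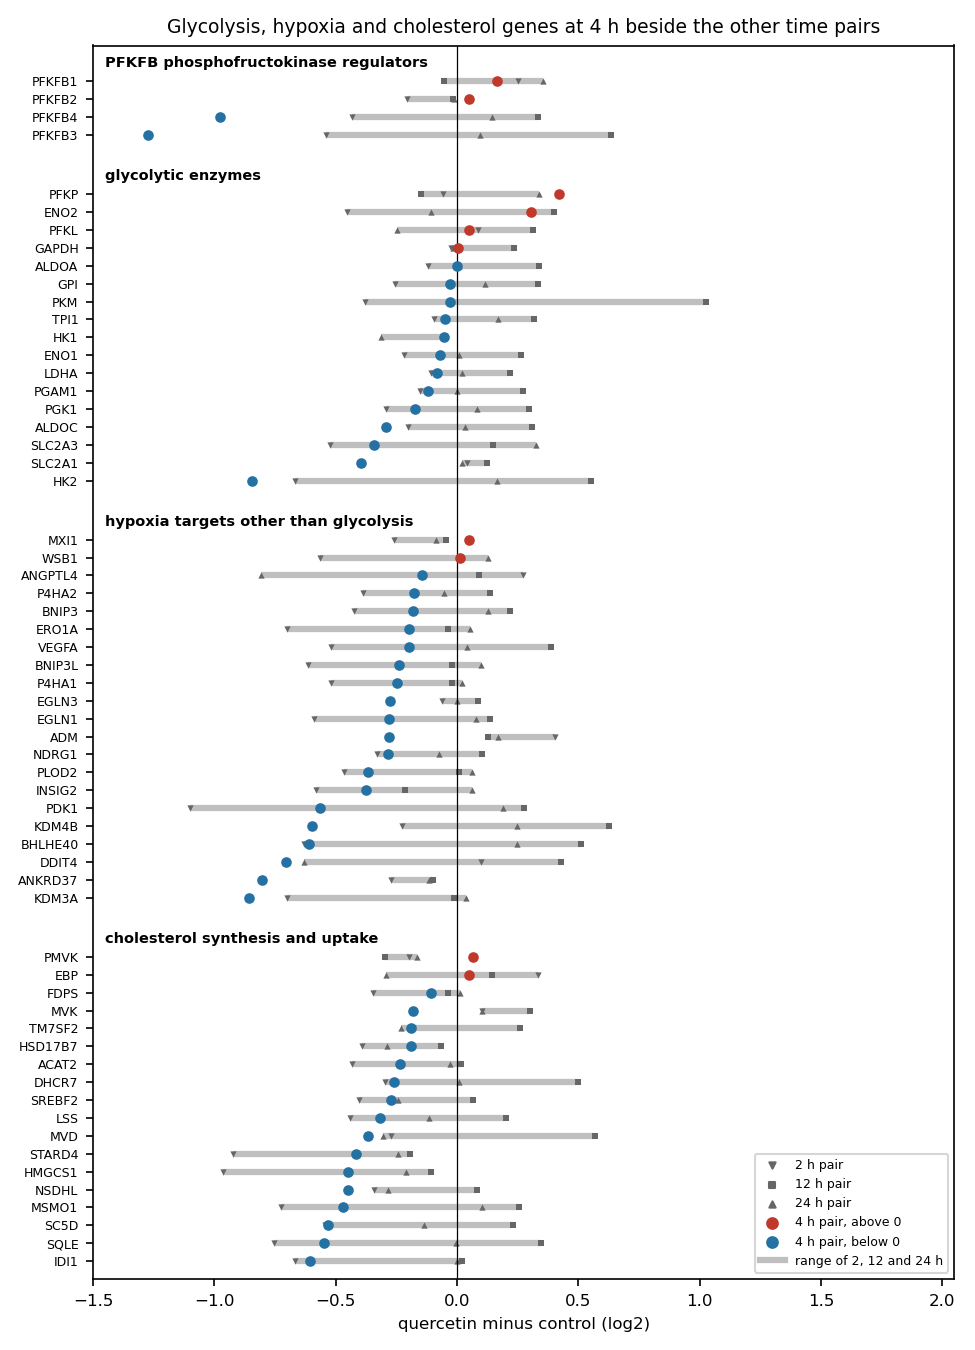
Quercetin minus control (x axis, log2) for 42 tested glycolysis and hypoxia genes and 18 cholesterol genes. Large circles are the 4 h pair, red above 0 and blue below; small marks are the 2, 12 and 24 h pairs and grey bars their range. PFKFB3, PFKFB4, HK2, KDM3A and ANKRD37 lie left of their bars, and cholesterol genes mostly lie left of 0 but within their bars.

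Several genes at the top of the 4 h ranking belong to none of these systems. UNKL, a zinc finger and RING domain relative of the Unkempt protein, had the largest positive difference, 1.49 or 2.81-fold. It was at 9.32, 8.63, 9.61 and 9.49 in control and 9.67, 10.11, 9.58 and 9.52 with quercetin, so that the 4 h arrays were both the lowest and the highest of the 8. Its second probe set above the filter gave 1.02, another, dim one -0.01, and the mean of the 3 was 0.83. TMEM192, a lysosomal membrane protein, was at 8.12 and 9.20, a difference of 1.08, and KANSL1L at 7.09 and 8.09, a difference just under 1. Only 1 of the 5 KANSL1L probe sets was above the filter, and its control signal at 4 h lay below the filter level. The 5 KANSL1L probe sets ran from -0.14 up to this difference, 4 of them above 0, with a mean of 0.27. FOSL1, the AP-1 subunit FRA1, was at 8.59 in control and 9.45 with quercetin, 0.86 higher and above each other pair. THBS1, the matrix glycoprotein thrombospondin, gave 0.94 (8.96 and 9.90), but its other probe sets above the filter gave 0.07 and -0.07 and the mean of all was 0.15. IL6R, the interleukin-6 receptor, gave 0.86 with 0.31 from its second probe set and from the mean of 3.

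A large difference at 4 h can rest on either array. Among the 200 genes at least 0.5 higher, the control array at 4 h was the lowest of the 8 in 114 (57%) and the quercetin array the highest in 62 (31%); over all genes these shares were 15.1% and 8.33%. Choosing genes by this difference raises both shares, so nothing is read from them about which array set a size. In IL6R the control array was the lowest: its control signal was 9.17, 7.98, 8.78 and 9.32, and 5 of the other arrays lay above the quercetin signal at 4 h, 8.83. The probe set annotated to the MIR146A locus, which reads a long transcript and not the mature miRNA, had 6.88 in the control array and 7.78 in the quercetin array at 4 h. Its difference was 0.90, and a dim second probe set gave -0.36. For the oxidant genes GCLM, SRXN1, TXNRD1, SLC7A11 and GCLC the quercetin array at 4 h was the highest of the 8. For GCLM and GCLC the control array at 4 h was the lowest of the 8 as well, but not for SRXN1, TXNRD1 and SLC7A11. RBM24 (0.95, from a control signal of 6.60, below the filter level) and DNASE1L1 (0.91) complete the 15 highest.

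At the lower end the same 2 counts were taken, with the same limit. Among the 193 genes at least 0.5 lower, the quercetin array at 4 h was the lowest of the 8 in 109 (56.5%) and the control array the highest in 70 (36.3%), beside 18.4% and 8.81% of all genes. PPP1R3C, the subunit that brings protein phosphatase 1 to glycogen, was at 10.34, 10.64, 10.77 and 10.62 in control and 10.46, 9.73, 10.71 and 10.53 with quercetin. The other 7 arrays lay between 10.34 and 10.77, and the 4 h difference was -0.92 against -0.10 to 0.11 elsewhere; with a dim second probe set the mean was -0.41. TMCC1, a membrane protein of the endoplasmic reticulum, was at 11.85 and 10.85. All 5 of its probe sets above the filter were lower, from -0.997 to -0.18. FAM13A was at 7.90 and 6.99, and its 3 probe sets above the filter gave -0.91, -0.95 and -0.23. After quantile normalization another probe set stood for it and gave -0.25. PKNOX1, a homeobox factor, gave -0.99, with -0.39 and 0.12 from its other probe sets.

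Of the remaining low values most came from dim probe sets. DIAPH3-AS1 (-1.13), FAM131C (-1.09) and EBF4 (-0.99) had quercetin signals of 6.77, 7.12 and 7.61 at 4 h, near the filter level, as had OR10H1, C16orf74 and LAMA5-AS1 (7.21, 7.42 and 7.49), which differed by -0.86, -0.86 and -0.85. TMEM151B, at 8.01, differed by -0.86. With a filter at the 75th percentile of signal 0 genes were at least 1 lower and 5 at least 1 higher. Over both ends, 6 of the 15 highest and 6 of the 15 lowest genes had more than 1 probe set above the filter, and in 5 of each 6 all of these had the same sign.

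Starvation genes tied to FOXO had 6 of 10 members lower, with a median of -0.20, where 54.2% of all genes were lower. The median was -0.044 with the mean of probe sets. On the probe sets used, the medians at 2, 12 and 24 h were -0.30, 0.02 and -0.26. CCNG2, a cyclin induced when growth factor signalling drops, was at 8.51 and 7.67 (-0.84), with -0.03 from its second probe set above the filter and a mean over 5 of -0.13. CITED2, also a hypoxia-induced gene, was at 8.49 and 7.88 (-0.61), with -0.10 from its second probe set above the filter. BCL6, a repressor, was at -0.39, but its 3 probe sets reached 0.45 and their mean was 0.01. TRIB1, a pseudokinase of liver lipid control, was at 0.49, with -0.53 from a dim second probe set and a mean of 0.03. Among fasting genes PPARGC1A, the coactivator PGC-1alpha, was 0.53 higher (8.25 and 8.78) and SIK1 0.40 higher (-0.03 from its second probe set), each with the control array at 4 h the lowest of the 8. IGFBP1 (-0.34) and PCK1 (-0.32), textbook insulin-repressed genes, were lower on the probe sets used, and G6PC1 was at 0.08. A dim second probe set of IGFBP1 gave 0.26, which takes its mean to -0.04. That list had 7 of 11 members higher and a median of 0.18, which turned to -0.02 without the filter on dim genes.

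Metallothioneins, metal-binding proteins, were lower on the probe sets used, though a dim second probe set of MT1G gave 0.45. Their list also holds zinc transporters. Of its 11 members 9 were lower, with a median of -0.21, where 54.2% of all genes were lower. Outside the range of the other pairs lay 7, where 45.1% of all genes did. The list medians at 2, 12 and 24 h were -0.24, 0.05 and -0.26. MT1E was at 11.03 in control and 10.49 with quercetin (-0.55), MT1X at 11.18 and 10.74 (-0.44), and MT2A at 11.97 and 11.58 (-0.39). Control at 4 h was the highest of the 8 arrays for MT1E and MT1X. These genes are near-identical in sequence and their probe sets can share signal, so the members are not independent of each other. The zinc importer SLC39A10 (0.43) and the factor MTF1 (0.27, with -0.10 from its second probe set), which drives metallothionein genes, were the 2 above 0. Splicing factors had 16 of 18 members lower and a median of -0.20, with SRSF7 (-0.31), CLK1 (-0.29) and SRSF6 (-0.28) lowest and 0 past 0.5. Their medians at 2, 12 and 24 h were -0.26, -0.08 and -0.09. Of the 18, 6 lay outside the range of the other pairs, a smaller share than the 45.1% of all genes. The 4 probe sets of SRSF7 ran from -0.31 to 0.35.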

How the data were processed

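The authors deposited log2 signals of 54675 probe sets in 8 arrays. The submitters' processing notes name RMA, with no version or settings in the sources used here. Of the probe sets, 62 are controls, 41097 have 1 gene symbol, 1801 several and 11715 none listed. For each of 19775 symbols the probe set brightest on average over the arrays was used, and 13298 genes with an average above 7.43, the median probe set, were kept. RMA pulls dim signals together, so folds of dim genes can be understated. Their differences also spread more at 4 h, with an SD of 0.242 in the dim class against 0.171 in the bright class. A large difference of a dim gene is thus not to be taken as a lower bound.

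The quercetin minus control difference was taken at each time (Python 3.11.15), counted at sizes of 1, 1.5-fold and 0.5, and set beside the other 3 pairs. No p-value was computed, since 1 array a side limits the precision. Counting was tested on simulated data. The genes named are the 15 largest differences in each direction and members of gene lists: all members of the oxidant defence, AhR and PFKFB lists, and of the others up to 6 by size and a few defining members. The members and lists were chosen with earlier results of these data known, and a list of YAP and serum response targets was added after the values were seen. Alternatives were other scalings (limma 3.58.1 in R 4.3.3), filters, probe set choices and sizes.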

Additional observations from a re-analysis of the deposited data

Results flagged for a closer look

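In 8 of the 30 leading genes the 4 h pair and another pair both differed by more than 0.5 in opposite directions, and the difference between the times was not tested. SLC7A11 was at 0.994 at 4 h and -0.645 at 24 h, THBS1 at 0.938 and at 2 h -0.68, and the MIR146A locus probe set at 0.902 and at 24 h -0.909. At the lower end PFKFB3 was at -1.27 at 4 h and 0.636 at 12 h, EBF4 at -0.991 and 0.651 at 12 h, LAMA5-AS1 at -0.845 and 0.688 at 12 h, HK2 at -0.844 and 0.551 at 12 h, and C16orf74 at -0.855 and 0.591 at 24 h. Each of these values compares 1 array with 1 array.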

How the results depend on the processing

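Among named genes 3009 values under alternatives stayed within the spread of the other pairs and 114 moved past it, and 0 genes of at least 0.5 turned sign. The 6 genes at least 1 higher became 10 after quantile normalization, 15 counting every probe set, 97 at 1.5-fold and 200 at 0.5. The 3 at least 1 lower became 6 after quantile normalization, 5 without a filter, 0 with the filter at the 75th percentile, 1 with a filter on the 4 h arrays, 8 counting every probe set, 91 at 1.5-fold and 193 at 0.5. The 358 genes past 0.5 and outside the range of the other pairs became 564 without a filter, 151 at the 75th percentile, 159 with the mean of probe sets and 718 counting every probe set. Of the list medians 287 stayed, 14 moved and 3 turned. AhR targets (-0.046) were at -0.021 after cyclic loess, 0.036 without a filter, 0.0052 with the filter at the 75th percentile or on the 4 h arrays, and -0.098 with the mean of probe sets. PFKFB genes (-0.46) were at -0.98 at the 75th percentile, where 1 gene is left, at 0.049 with a filter on the 4 h arrays, which drops PFKFB3, and at -0.92 with the mean of probe sets. Fasting genes turned to -0.016 without a filter and endothelial markers to -0.0073 at the 75th percentile. HepG2 markers were at 0.039 after cyclic loess and -0.10 with gene-specific probe sets. Markers of other epithelial lines were at -0.16 without a filter, -0.067 at the 75th percentile, -0.14 with the mean of probe sets and -0.16 with gene-specific ones, and NRF2 regulators at 0.27 with gene-specific ones. The median gene lay between -0.02 and 0.01 under the scalings. The share of higher among genes past 1 was 66.7%, and 72.7% after median centring or cyclic loess and 62.5% after quantile normalization. The arrays pair by time, but a fit with time as a block estimates a mean over 4 times and not the 4 h difference, so none was made, and the labels number no replicates. Leaving out an array leaves no 4 h difference.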

Other observations

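Immediate early transcription factors, which serum and stress switch on within minutes, had 9 of 14 members higher at 4 h and a median of 0.09. FOSL1 stood apart from them at 0.86. ATF3, a stress-induced factor, was at 8.54 in control and 9.02 with quercetin (0.48, with 0.10 from its second probe set above the filter) after -0.62 at 2 h, KLF6 was at 0.25 with a mean over its probe sets of 0.06, and KLF10 was at 0.23, and for these the control array at 4 h was the lowest of the 8. Of the early factors best known in this class, FOS was at 0.12, JUN at -0.01 and EGR1 at -0.12, but the 4 probe sets of JUN ran from -0.02 to 0.61 with a mean of 0.23, and those of EGR1 from -0.12 to 0.21. ERK feedback genes had 4 of 9 members higher, with SPRY2 at 0.30 and DUSP6 at -0.21. A list of YAP and serum response targets, added after the values were seen, had 8 of 12 members higher and a median of 0.06. CCN1, a matricellular protein of that list, was at 9.15 in control and 9.93 with quercetin, 0.78 higher, while its second probe set gave -0.01, and CCN2 was at 0.41.

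Amino acid response genes driven by ATF4 had 9 of 18 members higher and a median of 0.00. SLC7A11, which is also in that list, was its largest at 0.99, while ASNS, DDIT3 and PSAT1 were each at -0.02. VLDLR, a lipoprotein receptor, was 0.51 higher. Endoplasmic reticulum stress genes had a median of -0.08, with the sensor ERN1 at 0.46 (lowest of its probe sets -0.02) and the chaperone HSPA5 at -0.09. All 10 cytosolic heat shock genes were below 0, by 0.15 at most, with a median of -0.07. Among p53 targets, 5 of 16 were higher, with ZMAT3 at 0.46 (its 4 probe sets ran from -0.39), CDKN1A at -0.15 and a median of -0.05. Genes of the cell cycle differed little at 4 h: the medians were 0.02 for 17 replication genes and 0.00 for 18 mitotic genes, and 0 members of either list reached 0.5. Respiratory chain genes had a median of -0.05. The clock list had 5 of 11 members higher and 6 lower, with a median of -0.01. In it NR1D2, the nuclear receptor REV-ERB beta, was at 8.52 in control and 9.23 with quercetin (0.71, with 0.13 from its second probe set). BMAL1 was 0.40 higher, NFIL3 was at -0.43 and DBP at -0.26, with -0.03 from the second probe set of DBP. POLR1C, a subunit shared by RNA polymerases I and III, was 0.64 higher with 0.18 from its second probe set, against a median of 0.02 for the 12 ribosome biogenesis genes.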
